A study of Mus musculus with 8 samples.

Results

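Heat shock and chaperone genes were described through 9 genes: *Hspa1a*, *Hspa1b*, *Hsph1*, *Dnajb1*, *Hspb1*, *Hspa8*, *Hsp90aa1*, *Hsp90ab1* and *Bag3*. The genes were listed by symbol and found through the Ensembl mouse gene identifiers of the count tables. They were 9 of 55416 gene identifiers in all, and each of the 9 passed the expression filter that left 18560 genes for testing.

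Chaperones bind unfolded proteins, keep them from clumping and help them fold. Proteins of the HSP70 family do so in cycles that J-domain proteins such as DNAJB1 start and nucleotide exchange factors such as HSPH1 and BAG3 complete, small heat shock proteins such as HSPB1 hold clients without ATP, and HSP90 proteins act on partly folded kinases and steroid receptors. Heat, oxidants and inflammation are known to induce part of these genes through heat shock factor HSF1, which binds repeats of the bases GAA in their promoters, while *Hspa8* and *Hsp90ab1* are known as constitutive genes that are active in unstressed lung as in other tissues.

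RNA was sequenced from lung tissue of 8 female C57BL/6 mice (C57BL/6J in the study's methods) aged 6 to 8 weeks. The 3 control mice (numbered 1, 2 and 4) received the solvent DMSO by vein and, 30 min later, saline in the abdomen. The 3 LPS mice (1, 6 and 7) received 35 mg/kg LPS, a bacterial endotoxin that sets off sepsis-like lung injury, and no DMSO injection is described for them. The 2 dual-treated mice (2 and 5) received 10 mg/kg YW3-56 30 min before 35 mg/kg LPS. YW3-56 is an inhibitor of the protein-citrullinating PAD enzymes, PAD4 and others of the family. Lungs were taken at 24 h. YW3-56 and its solvent therefore cannot be told apart where dual-treated mice are compared with LPS mice. By this description LPS and control mice also differ by the DMSO injection, so LPS and the solvent cannot be told apart between them. In the paper's survival experiment, median survival was shorter than 24 h with LPS alone and longer with YW3-56 before LPS. What part this has in the comparisons with LPS mice was not tested.

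The total counts of the control libraries were 19061949, 19796242 and 20527836. Those of the LPS libraries were 20818501, 19379911 and 19279724, and those of the dual-treatment libraries were 19875939 and 20908608, so that depth was alike in all groups. Levels are given as CPM (counts scaled to a common library size) with edgeR's TMM factors, with the mean ± SD of each group. Differences are given as log2 fold changes (log2FC) from 1 edgeR quasi-likelihood fit of all 8 libraries, with a 95% confidence interval or SE, and a gene was called up- or downregulated where its p-value, adjusted by the Benjamini-Hochberg procedure over the 18560 genes, was under 0.05. The 3 comparisons are LPS against control mice, given below as a change with LPS, dual-treated against control mice, and dual-treated against LPS mice. They share mice: each group stands in 2 of the 3 comparisons. The LPS mice enter LPS against control and dual-treated against LPS mice with opposite sign, so that opposite directions in these are not independent results.

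The label of lung tissue was checked with 11 markers of lung epithelium and endothelium. Their summed level lay between 45035 and 97827 CPM in the 8 libraries, *Scgb1a1* was the most abundant in each, and no marker was at 0 counts in any library. Single markers moved: with LPS 3 of the 11 rose and 4 fell. Libraries of LPS mice 6 and 7 stood apart. Markers of squamous epithelium, of which 13 of 14 were in the count tables, summed to 768 CPM in LPS mouse 6 and 2142 CPM in LPS mouse 7, with *Krt4* (293 CPM) and *Krt13* (887 CPM) the most abundant, and 11 of the 13 rose with LPS. In the other 6 libraries the sum lay between 1.60 and 25.5 CPM, and 6 of the 13 genes were at 0 counts in LPS mouse 1. Skeletal muscle markers summed to 545 and 1392 CPM in LPS mice 6 and 7, led by *Acta1* (209 and 600 CPM), and to between 7.21 and 21.3 CPM in the others. Of these 12 genes 10 were tested and 10 rose with LPS. The log2FC of each of the 9 genes in the comparisons with the LPS group, and the counts of each chaperone list, are therefore also given without mice 6 and 7. That leaves LPS mouse 1 alone in its group, and its variation is then assumed to be like that of the other groups.

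Heat shock genes did not move as a block. Against control mice, LPS mice had far less RNA of the inducible HSP70 genes *Hspa1a* and *Hspa1b*, moderately less of *Hspa8* and *Hsph1*, and more of the small heat shock protein gene *Hspb1* and the co-chaperone gene *Bag3*. In the dual-treated mice *Hspa1a* and *Hspa1b* were within the range of the control mice, *Hspb1* and *Bag3* were below every control mouse, and *Hsph1*, *Dnajb1* and both HSP90 genes were downregulated. The tissue was measured in bulk, so fewer cells of a type and less RNA per cell cannot be told apart.

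**Figure D1:**
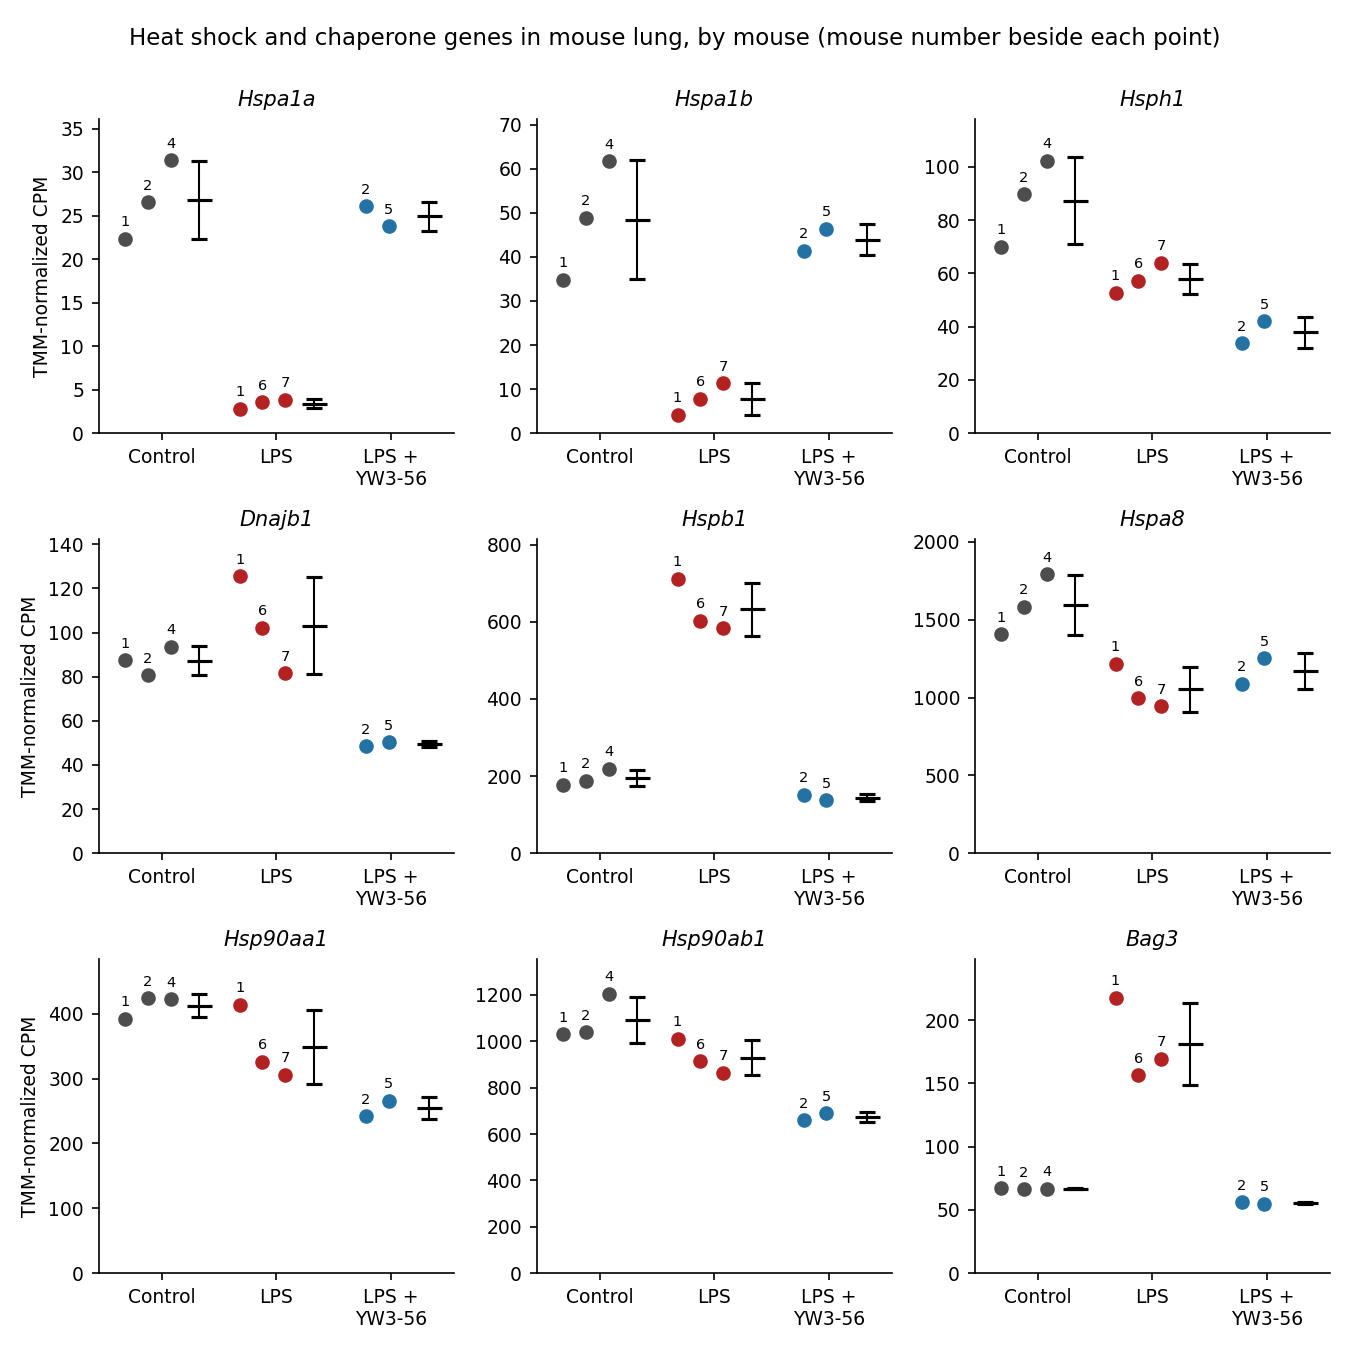
TMM-normalized CPM (vertical axes, from 0) of each of the 9 genes in each mouse, with the mouse number above its point and the mean ± SD of each group at the right. Hspa1a lay between 2.79 and 3.85 CPM in the LPS mice and between 22.4 and 31.4 CPM in the control mice, while Hspb1 lay between 583 and 712 CPM in the LPS mice and between 178 and 219 CPM in the control mice.

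*Hspa1a* (ENSMUSG00000091971, chr17:35188166-35191132 on the minus strand of GRCm39) encodes a stress-inducible cytosolic HSP70. Its level was 22.4, 26.6 and 31.4 CPM in control mice 1, 2 and 4 (26.8 ± 4.52, SD, n = 3). It was 2.79, 3.58 and 3.85 CPM in LPS mice 1, 6 and 7 (3.40 ± 0.552, SD, n = 3), from 47, 62 and 69 counts. In dual-treated mice 2 and 5 it was 26.1 and 23.8 CPM (24.9 ± 1.66, SD, n = 2). All LPS mice lay far below all others, and both dual-treated mice lay inside the control range. *Hspa1a* fell 7.85-fold with LPS (log2FC = -2.97, SE 0.179, adjusted p = 1.45e-06 by the quasi-likelihood test of edgeR, Benjamini-Hochberg adjustment). It was 7.31-fold higher in dual-treated than in LPS mice (log2FC = 2.87, SE 0.189, adjusted p = 6.16e-06 by the same edgeR test). Against control mice the log2FC of the dual treatment was -0.10, with an interval from -0.50 to 0.29, and did not pass the test. Without LPS mice 6 and 7 the drop with LPS was larger, with a log2FC of -3.26, and the log2FC between dual-treated and LPS mice was 3.15.

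*Hspa1b* (ENSMUSG00000090877, chr17:35175412-35178214 on the minus strand) lies next to *Hspa1a* and encodes nearly the same protein. Its level was 34.8, 48.9 and 61.7 CPM in the control mice (48.5 ± 13.5, SD, n = 3). In the LPS mice it was 4.15, 7.79 and 11.4 CPM (7.77 ± 3.61, SD, n = 3), and in the dual-treated mice 41.4 and 46.5 CPM (43.9 ± 3.58, SD, n = 2). The order of the groups was that of *Hspa1a*: the highest LPS mouse lay below the lowest control mouse, and the dual-treated mice lay within the control range. *Hspa1b* fell 6.22-fold with LPS (log2FC = -2.64, SE 0.323, adjusted p = 7.35e-05 by the edgeR test). It was 5.63-fold higher in dual-treated than in LPS mice (log2FC = 2.49, SE 0.342, adjusted p = 0.000234 by the edgeR test). The log2FC of the dual treatment against control was -0.14, with an interval from -0.88 to 0.59. It was 0.04 without control mouse 4, which had the highest level. LPS mouse 1 had the lowest *Hspa1b* of all mice, and the part of the squamous and skeletal muscle signals of mice 6 and 7 was not tested. Without mice 6 and 7 the log2FC was -3.54 with LPS and 3.40 between dual-treated and LPS mice.

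Values of the pair are partly tied by sequence. The coding sequences of *Hspa1a* (1923 bases) and *Hspa1b* (1926 bases) were 99.4% identical in GRCm39, and 38.1% and 40.5% of the 150-base windows of their transcripts occurred without a mismatch in the other. How reads that fit both genes were counted is not given, so the split between them is uncertain. Summed over the pair, the level was 57.2, 75.4 and 93.2 CPM in the control mice, 6.93, 11.4 and 15.2 CPM in the LPS mice and 67.5 and 70.2 CPM in the dual-treated mice. The sum has the same order of groups as each gene alone. It fell 6.72-fold with LPS (log2FC = -2.75, SE 0.265, adjusted p = 1.66e-05 by the edgeR test). It was 6.15-fold higher in dual-treated than in LPS mice (log2FC = 2.62, adjusted p = 5.75e-05 by the edgeR test). The share of *Hspa1a* in the summed counts was 39.1%, 35.2% and 33.7% in the control mice, 40.2%, 31.5% and 25.3% in the LPS mice and 38.7% and 33.9% in the dual-treated mice, ranges that overlap between the groups.

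The pair also shares its upstream sequence. Over the 250 bases before the start, 247 were identical between *Hspa1a* and *Hspa1b*. Promoter windows from RefSeq (table of build GRCm38.p6, each placed on GRCm39 by a unique exact match), which run from 250 bases before to 50 bases after a start, were found for 6 of the 9 genes: *Hspa1a*, *Hspa1b*, *Hsph1*, *Dnajb1*, *Hspb1* and *Bag3*. The window of each was searched on both strands for 3 adjoining units of the heat shock element, GAANNTTCNNGAA or its reverse complement TTCNNGAANNTTC, and for 2 units, GAANNTTC or TTCNNGAA, each of which is its own reverse complement and is contained in the 3-unit forms. The 2-unit search was added after the 3-unit search had been run. Of 32544 distinct RefSeq windows, 198 (0.608%) held the 3-unit form and 4917 (15.1%) the 2-unit form. Among the 6 genes, *Hsph1* alone held the 3-unit form, and 5 held the 2-unit form, all but *Dnajb1*. Of the other chaperone genes with a window, *Dnajb6*, *Chordc1*, *Hspd1* and *Hspe1* held the 3-unit form. By gene, 0.669% of the 26742 genes with a window held the 3-unit form and 17.0% the 2-unit form. The 2-unit form was held by 4 of 14 J-domain, 3 of 4 other small heat shock protein, 3 of 13 HSP90 co-chaperone and 1 of 6 HSP70 co-chaperone genes. It was held by 2 of 8 mitochondrial and 3 of 7 CCT genes, and by 0 of 7 other HSP70 and HSP110 family, 0 of 13 ER and 0 of 2 heat shock factor genes. A match describes letters in the window and is no measure of binding.

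The stretches around these matches are shown because genes that carry them moved in opposite directions with LPS. They are written 5′ to 3′ on the strand of the gene, with the matching element in capitals. In *Hspa1a* (chr17:35191209-35191256, minus strand, GRCm39) and *Hspb1* (chr5:135916636-135916703, plus strand) the stretches lie upstream of the start and outside annotated exons, as does that of *Hspa1b* (chr17:35178291-35178338, minus strand). In *Hsph1* (3-unit form, chr5:149559748-149559770, minus strand) and *Bag3* (chr7:128125344-128125356, plus strand) they lie downstream of the RefSeq start, in the 5′ UTR, and that of *Bag3* also lies in an exon of the antisense lncRNA gene 4921520J07Rik. *Hsph1* has a further 2-unit element 54 to 47 bases before a RefSeq start, whose surroundings are not shown because some transcripts begin before it.
Hspa1a: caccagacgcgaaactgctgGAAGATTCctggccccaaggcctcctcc
Hspa1b: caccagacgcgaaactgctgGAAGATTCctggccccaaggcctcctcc
Hspb1: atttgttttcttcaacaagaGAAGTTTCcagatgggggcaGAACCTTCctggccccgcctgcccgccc
Hsph1: gcagaTTCTGGAAAGTTCtcctc
Bag3: gaccaGAAGTTTC
The stretches of *Hspa1a* and *Hspa1b* are the same base for base, with the element 104 to 97 bases before each start, and *Hspb1* has 2 elements between 117 and 90 bases before its start.

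*Hspa8* (ENSMUSG00000015656, chr9:40711630-40731039, plus strand) encodes the constitutive HSP70 of the cytosol, HSC70, and shares 74.1% of coding bases with *Hspa1a* but none of the 150-base windows. Its level was 1406, 1583 and 1791 CPM in the control mice (1593 ± 193, SD, n = 3). It was 1217, 996 and 944 CPM in the LPS mice (1052 ± 145, SD, n = 3), and 1090 and 1253 CPM in the dual-treated mice (1172 ± 115, SD, n = 2). Both treated groups lay below every control mouse and overlapped each other. *Hspa8* fell 1.51-fold with LPS (log2FC = -0.60, SE 0.146, adjusted p = 0.00510 by the edgeR test). Without LPS mice 6 and 7 the log2FC was -0.38 and no longer passed. The log2FC of the dual treatment against control was -0.44, with an interval from -0.81 to -0.07, and did not pass with edgeR (adjusted p = 0.0986) but did with DESeq2 (log2FC = -0.46). Between dual-treated and LPS mice the log2FC was 0.16, with an interval from -0.21 to 0.52. It was -0.06 without LPS mice 6 and 7, and 0.49, past the threshold, when libraries were scaled by their size only.

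*Hsph1* (ENSMUSG00000029657, chr5:149537636-149560156, minus strand) encodes HSP105, a member of the HSP110 family that exchanges the nucleotide of HSP70 and holds unfolded clients. Its level was 70.0, 89.7 and 102 CPM in the control mice (87.3 ± 16.3, SD, n = 3). It was 52.8, 57.2 and 63.9 CPM in the LPS mice (58.0 ± 5.61, SD, n = 3), and 33.8 and 42.0 CPM in the dual-treated mice (37.9 ± 5.80, SD, n = 2). In TMM CPM the groups formed a stair without overlap, from control down to the dual treatment. *Hsph1* fell 1.51-fold with LPS (log2FC = -0.59, SE 0.150, adjusted p = 0.00620 by the edgeR test). It fell 2.31-fold in dual-treated against control mice (log2FC = -1.21, SE 0.174, adjusted p = 0.00198 by the edgeR test), the only one of the 9 genes with a fold over 2 in that comparison. Between dual-treated and LPS mice it was 1.53-fold lower (log2FC = -0.61, SE 0.171, adjusted p = 0.0120 by the edgeR test). Without LPS mice 6 and 7 the log2FC with LPS was -0.72. The call between dual-treated and LPS mice was lost without dual-treated mouse 2 (log2FC = -0.49), without LPS mice 6 and 7 (log2FC = -0.48) and with scaling by library size only (log2FC = -0.30).

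*Dnajb1* (ENSMUSG00000005483, chr8:84334811-84339820, plus strand) encodes HSP40, the J-domain protein that hands clients to HSP70. Its level was 87.5, 80.6 and 93.6 CPM in the control mice (87.2 ± 6.49, SD, n = 3). It was 126, 102 and 81.5 CPM in the LPS mice (103 ± 22.1, SD, n = 3), and 48.5 and 50.4 CPM in the dual-treated mice (49.4 ± 1.34, SD, n = 2). LPS and control mice overlapped, and both dual-treated mice lay below all others. *Dnajb1* fell 2.09-fold in dual-treated against LPS mice (log2FC = -1.06, SE 0.167, adjusted p = 0.000533 by the edgeR test). It fell 1.76-fold against control mice (log2FC = -0.82, SE 0.166, adjusted p = 0.0104 by the edgeR test), a call that was lost without dual-treated mouse 2 at the same log2FC of -0.82. With LPS the log2FC was 0.24, with an interval from -0.08 to 0.57, and did not pass. LPS mouse 7 had the lowest level of its group. The log2FC passed the threshold without that mouse (0.40) and without mice 6 and 7 (0.53), and was -0.06 with scaling by library size only. Between dual-treated mice and LPS mouse 1 alone it was -1.35.

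*Bag3* (ENSMUSG00000030847, chr7:128125283-128148705, plus strand) encodes a co-chaperone of HSP70 that steers clients to autophagy and is abundant in muscle. Its level was 67.1, 66.4 and 66.6 CPM in the control mice (66.7 ± 0.353, SD, n = 3). It was 218, 157 and 169 CPM in the LPS mice (181 ± 32.2, SD, n = 3), and 56.2 and 54.8 CPM in the dual-treated mice (55.5 ± 0.951, SD, n = 2). No groups overlapped, and the dual-treated mice lay a little below the closely spaced control mice. *Bag3* rose 2.72-fold with LPS (log2FC = 1.44, SE 0.124, adjusted p = 8.32e-06 by the edgeR test). It fell 3.27-fold in dual-treated against LPS mice (log2FC = -1.71, SE 0.144, adjusted p = 1.66e-05 by the edgeR test). Against control mice the log2FC of the dual treatment was -0.26, with an interval from -0.57 to 0.04, and did not pass. The highest level was that of LPS mouse 1. Without LPS mice 6 and 7, which leaves mouse 1 alone in its group, the log2FC was 1.71 with LPS and -1.98 between dual-treated and LPS mice. The part of muscle in these differences was not tested.

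*Hspb1* (ENSMUSG00000004951, chr5:135916760-135918417, plus strand) encodes HSP27 (HSP25 in mice), a small heat shock protein that also binds actin filaments and is abundant in squamous epithelium and muscle. Its level was 178, 188 and 219 CPM in the control mice (195 ± 21.6, SD, n = 3). It was 712, 603 and 583 CPM in the LPS mice (633 ± 69.4, SD, n = 3), and 151 and 137 CPM in the dual-treated mice (144 ± 9.90, SD, n = 2). No groups overlapped, with the LPS mice far above the others. *Hspb1* rose 3.24-fold with LPS (log2FC = 1.70, SE 0.126, adjusted p = 3.82e-06 by the edgeR test), the largest rise of the 9 genes. It fell 4.39-fold in dual-treated against LPS mice (log2FC = -2.13, SE 0.149, adjusted p = 7.64e-06 by the edgeR test). The log2FC of the dual treatment against control was -0.44, with an interval from -0.75 to -0.12, and did not pass with edgeR (adjusted p = 0.0630). It passed with DESeq2 (log2FC = -0.45), without the filter on low counts (-0.44) and in a fit of the compared groups alone (-0.42). LPS mouse 1 again had the highest level, and without mice 6 and 7 the log2FC was 1.87 with LPS and -2.31 between dual-treated and LPS mice.

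*Hsp90aa1* (ENSMUSG00000021270, chr12:110656842-110669166, minus strand) encodes the stress-inducible cytosolic HSP90. Its level was 392, 424 and 422 CPM in the control mice (413 ± 18.0, SD, n = 3). It was 414, 326 and 306 CPM in the LPS mice (348 ± 57.3, SD, n = 3), and 242 and 266 CPM in the dual-treated mice (254 ± 16.9, SD, n = 2). LPS mouse 1 lay among the control mice, and the dual-treated mice lay below all others. *Hsp90aa1* fell 1.62-fold in dual-treated against control mice (log2FC = -0.70, SE 0.146, adjusted p = 0.0118 by the edgeR test). It fell 1.37-fold against LPS mice (log2FC = -0.46, SE 0.145, adjusted p = 0.0218 by the edgeR test). Without dual-treated mouse 2 neither call held (log2FC = -0.66 and -0.41), and scaling by library size only also ended the second (log2FC = -0.12). With LPS the log2FC was -0.24, with an interval from -0.53 to 0.04. It was 0.01 without LPS mice 6 and 7, and it passed the threshold without LPS mouse 1 (-0.38) and with scaling by library size only (-0.54). Between dual-treated mice and LPS mouse 1 alone it was -0.71.

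*Hsp90ab1* (ENSMUSG00000023944, chr17:45878552-45891949, minus strand) encodes the constitutive cytosolic HSP90. Its level was 1029, 1038 and 1204 CPM in the control mice (1091 ± 98.3, SD, n = 3). It was 1011, 913 and 864 CPM in the LPS mice (929 ± 74.9, SD, n = 3), and 659 and 690.2 CPM in the dual-treated mice (674 ± 22.4, SD, n = 2). As with *Hsph1*, the groups descended from control to the dual treatment without overlap, though the highest LPS mouse was close to the lowest control mouse. *Hsp90ab1* fell 1.62-fold in dual-treated against control mice (log2FC = -0.69, SE 0.133, adjusted p = 0.00839 by the edgeR test). It fell 1.38-fold against LPS mice (log2FC = -0.46, SE 0.132, adjusted p = 0.0138 by the edgeR test), a call that was lost with scaling by library size only (log2FC = -0.13). With LPS the log2FC was -0.23, with an interval from -0.49 to 0.03, and did not pass. It passed with scaling by library size only (log2FC = -0.52). Without LPS mice 6 and 7 it was -0.10, and -0.59 between dual-treated and LPS mice.

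**Figure D2:**
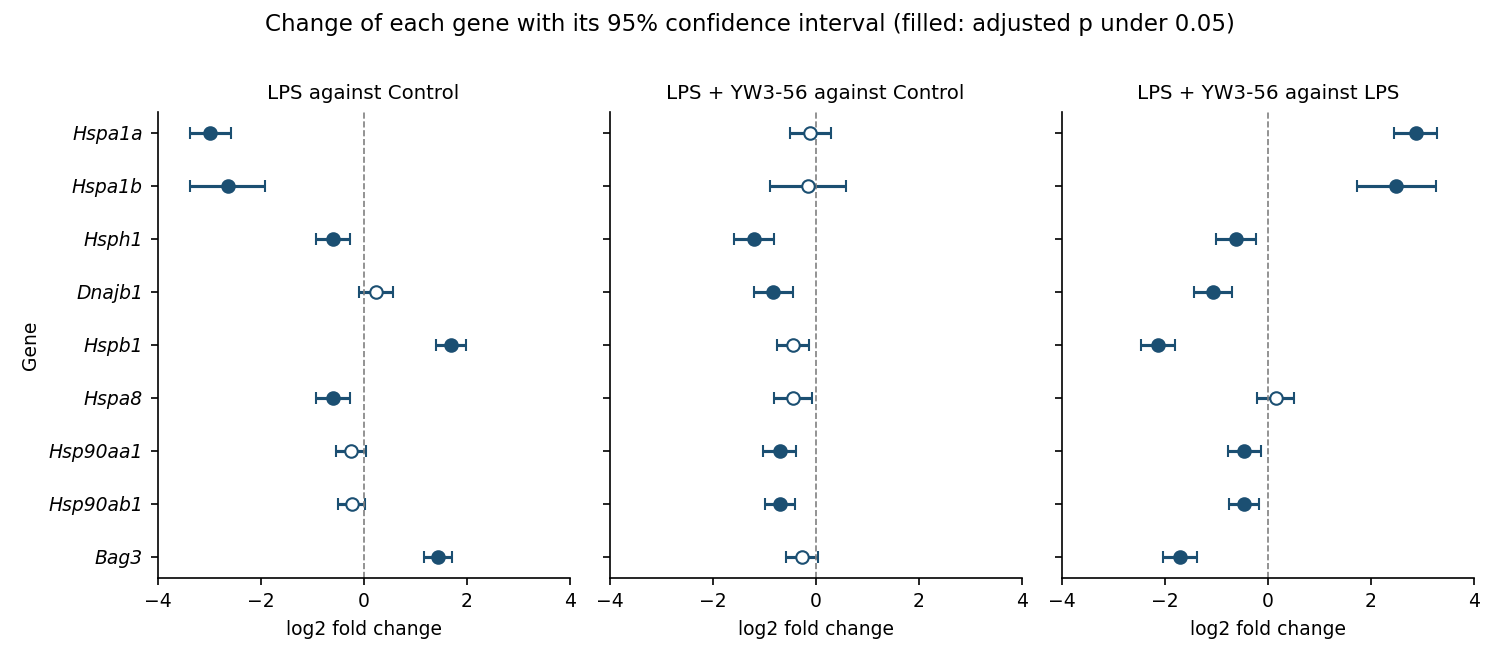
Log2FC of each of the 9 genes (points, horizontal axes) with the 95% confidence interval (bars) in each comparison, filled where the adjusted p-value was under 0.05. With LPS the values ran from -2.97 (Hspa1a) to 1.70 (Hspb1), and in dual-treated against LPS mice from -2.13 (Hspb1) to 2.87 (Hspa1a), with TMM scaling; scaling by library size only turned the sign of Dnajb1 with LPS (-0.06).

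Counted over the 9 genes, 2 were upregulated and 4 downregulated with LPS, where 32.6% of all tested genes were upregulated and 33.9% downregulated. These shares were so high that such counts do not set the chaperone genes apart. In dual-treated against LPS mice 2 were upregulated and 6 downregulated, beside 31.7% and 27.4% of all genes. In dual-treated against control mice 0 were upregulated and 4 downregulated by the edgeR test, beside 9.13% and 7.02% of all genes. At an unadjusted p-value under 0.05 these counts were 0 and 6, and with DESeq2 they were 0 and 6. The median log2FC of the 9 genes was -0.24 with LPS, -0.44 in dual-treated against control mice and -0.46 in dual-treated against LPS mice. Over all tested genes it was -0.01, 0.00 and 0.06.

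Scaling mattered for the LPS group, whose TMM factors ran from 0.810 to 0.930, against 1.06 to 1.08 in control and 1.09 to 1.11 in dual-treated libraries. When libraries were scaled by their size only, the median log2FC of all genes moved to -0.29 with LPS and to 0.38 in dual-treated against LPS mice. The medians of the 9 genes were then -0.54 and -0.13, still below those of all genes. The counts became 2 up and 6 down with LPS, and 3 up and 3 down in dual-treated against LPS mice. Without LPS mice 6 and 7 the medians of the 9 genes were -0.10 with LPS and -0.59 in dual-treated against LPS mice. Shares of all genes called are given for the main fit only, so counts under other settings have no such share beside them. By the criterion of the study's methods, a fold change over 2 with an unadjusted p-value under 0.05, *Hspb1* and *Bag3* were up and *Hspa1a* and *Hspa1b* down with LPS, where 18.3% and 21.8% of all genes met it in each direction. In dual-treated against LPS mice *Hspa1a* and *Hspa1b* were up and *Hspb1*, *Bag3* and *Dnajb1* down, beside 20.6% and 14.7% of all genes. Against control mice *Hsph1* alone was down and 0 genes were up, beside 3.43% and 7.04%.

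To compare genes with each other, levels were divided by the length of all annotated exons of a gene and expressed as TPM, which have the same total in every library. TPM are used here to order genes within a group, since they carry no TMM factors and their differences between groups depart from those in CPM. In the control mice *Hsp90ab1* (688 ± 51.7 TPM), *Hspb1* (636 ± 59.3 TPM) and *Hspa8* (625 ± 63.8 TPM) were highest and lay within their SDs of each other. *Hsp90aa1* followed at 306 ± 8.0 TPM, then *Bag3* (86.8 ± 2.15 TPM), *Dnajb1* (79.0 ± 5.61 TPM) and *Hspa1b* (58.8 ± 15.3 TPM). The SDs of *Dnajb1* and *Hspa1b* overlapped. The lowest were *Hspa1a* (30.7 ± 4.61 TPM) and *Hsph1* (26.7 ± 4.50 TPM), whose SDs overlapped.

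In the LPS mice *Hspb1* stood alone at the top with 1486 ± 46.7 TPM, followed by *Hsp90ab1* (422 ± 7.49 TPM), *Hspa8* (297 ± 14.2 TPM), *Hsp90aa1* (185 ± 13.3 TPM) and *Bag3* (169 ± 19 TPM), of which the last 2 overlapped in their SDs. *Dnajb1* (66.7 ± 8.04 TPM) and *Hsph1* (12.9 ± 2.46 TPM) came next, and *Hspa1b* (7.04 ± 3.82 TPM) and *Hspa1a* (2.86 ± 0.710 TPM) were last. The SD of *Hspa1b* overlapped with those of *Hsph1* and *Hspa1a*. In the dual-treated mice *Hspb1* (509 ± 47.3 TPM), *Hspa8* (496 ± 36.8 TPM) and *Hsp90ab1* (459 ± 4.04 TPM) were again alike with these lengths, and *Hspa1b* (57.6 ± 3.29 TPM) and *Hspa1a* (31.0 ± 2.81 TPM) were close to their TPM in the control mice. *Hsph1* was last at 12.5 ± 1.61 TPM.

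Comparisons with the LPS mice differed between TPM and CPM. *Dnajb1* had a lower mean TPM in LPS than in control mice but a higher mean CPM. *Hsph1* was 10.6, 12.8 and 15.5 TPM in the LPS mice and 11.4 and 13.7 TPM in the dual-treated mice, so that its step between these groups in CPM was absent in TPM. The means of *Hspa8* and *Hsp90ab1* were also further apart between control and LPS mice in TPM than in CPM.

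The order depends on the length used. Lengths of the canonical transcript were tried after these values were seen, since the annotated exons of *Hspa8* cover 8680 bases and its canonical transcript 2394. The 3 highest genes of the control mice were then apart, with *Hspa8* (1478 ± 160 TPM) above *Hsp90ab1* (896 ± 69.6 TPM) and *Hspb1* (473 ± 46.3 TPM). *Hspa1a* (20 ± 3.13 TPM) was last there, below *Hsph1* (31.4 ± 5.51 TPM). In the LPS mice *Hspb1* (1112 ± 47.2 TPM) was still first, followed by *Hspa8* (707 ± 38.9 TPM) and *Hsp90ab1* (554 ± 14.7 TPM). In the dual-treated mice *Hspa8* (1117 ± 93.3 TPM) and *Hsp90ab1* (570 ± 10.3 TPM) lay above *Hspb1* (360 ± 30.1 TPM). The first place of *Hspb1* in LPS mice therefore held with both lengths, while its first place in dual-treated mice did not.

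Other signals moved with the groups, and their part in the results for the 9 genes was not tested. The summed level of 12 neutrophil markers was between 192 and 337 CPM in the control mice, between 2423 and 3542 CPM in the LPS mice and 1932 and 2534 CPM in the dual-treated mice, and *S100a9* led in every treated mouse. With LPS 12 of the 12 rose, and 7 rose in dual-treated against control mice. In dual-treated against LPS mice 4 of them rose and 5 fell, with a median log2FC of -0.32. The sum of 10 macrophage markers was between 347 and 436 CPM in control mice, between 252 and 346 CPM in LPS mice and 1027 and 1067 CPM in dual-treated mice. Of these 1 rose and 4 fell with LPS, 7 rose and 1 fell in dual-treated against control mice, and 9 rose in dual-treated against LPS mice. The sum of 6 red blood cell genes, led by *Hbb-bs*, was between 1735 and 3914 CPM in control mice, between 1480 and 3301 CPM in LPS mice and 427 and 382 CPM in dual-treated mice, where 5 fell against control mice and 6 against LPS mice. Cardiac muscle markers, 8 genes led by *Myh6*, summed to between 433 and 1195 CPM in control mice, between 538 and 904 CPM in LPS mice and 256 and 251 CPM in dual-treated mice. In the dual-treated mice 6 of the 8 fell against control mice (median log2FC -1.55) and 6 against LPS mice (median -1.45). *Dnajb1*, *Hsph1* and both HSP90 genes fell in both comparisons. Against LPS mice *Hspb1* and *Bag3* also fell, while *Hspa1a* and *Hspa1b* rose (log2FC = 2.87 and 2.49). With LPS 0 of the 8 cardiac markers rose and 1 fell. No gene of these lists was at 0 counts in any library.

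The 11 lung markers did not move together. With LPS 3 rose, *Sftpd* (log2FC = 1.02), *Scgb1a1* (0.79) and *Foxj1* (0.72), and 4 fell. Between dual-treated and LPS mice 2 rose and 3 fell, the latter *Scgb1a1* (log2FC = -1.28), *Foxj1* (-1.02) and *Ager* (-0.68). The 2 that rose there, *Nkx2-1* and *Pecam1*, are given by mouse and were chosen after their values were seen, because they were low in the LPS mice like *Hspa1a* and *Hspa1b*. *Nkx2-1*, a transcription factor of lung epithelium, was 316, 306 and 309 CPM in the control mice, 61.3, 63.3 and 53.8 CPM in the LPS mice and 233 and 206 CPM in the dual-treated mice. *Pecam1*, of endothelium, was 617, 679 and 672 CPM, 254, 217 and 213 CPM and 1072 and 912 CPM in the same order. For both, every LPS mouse lay below all other mice. With LPS *Nkx2-1* fell (log2FC = -2.38) and *Pecam1* fell (log2FC = -1.52), and in dual-treated against LPS mice both rose (1.88 and 2.12). In dual-treated against control mice *Nkx2-1* fell (log2FC = -0.50) and *Pecam1* rose (log2FC = 0.60). The log2FC of *Cdh5*, another endothelial marker, was 0.17 with LPS and -0.44 in dual-treated against LPS mice, and neither passed. The part of lung cell types in the results for *Hspa1a*, *Hspa1b* and *Hspa12b* was not tested.

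Immediate early genes, such as *Jun* and *Dusp1*, are switched on within minutes of a stress, also while tissue is being taken. Their 13 genes summed to 1379, 1249 and 1327 CPM in the control mice and to 7107, 3568 and 3869 CPM in the LPS mice. In the dual-treated mice the sum was 1426 and 1464 CPM. With LPS 10 of the 13 rose, and 11 fell in dual-treated against LPS mice. The sum was highest in LPS mouse 1, as were *Hspb1*, *Bag3* and *Dnajb1*. *Hspa8* and both HSP90 genes were highest in that mouse among the LPS mice only. By contrast, *Hspa1a* (2.79 CPM), *Hspa1b* (4.15 CPM) and *Hsph1* (52.8 CPM) were lowest in it among the LPS mice. The sums of the dual-treated mice were close to those of the control mice. No immediate early gene was at 0 counts in any library, and whether the sum and the chaperone genes are linked was not tested. The 9 genes are also present in the cell types of several of these lists, so their levels cannot be assigned to a cell type in bulk tissue.

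The other chaperones and their regulators were followed through 89 genes in 9 lists, of which 88 were tested. The remaining gene was *Hspb3*. With LPS 35 of the 88 rose and 26 fell, with a median log2FC of 0.15, where 32.6% and 33.9% of all genes did. In dual-treated against LPS mice 22 rose and 35 fell, with a median of -0.24, where 31.7% and 27.4% of all genes did. Leaving out LPS mice 6 and 7 gave 33 up and 24 down with LPS, and 18 up and 36 down in dual-treated against LPS mice. Both balances turn with scaling: by library size only they were 29 up and 36 down (median -0.14 beside -0.29 for all genes) and 35 up and 18 down (median 0.09 beside 0.38 for all genes). In dual-treated against control mice 10 rose and 9 fell, where 9.13% and 7.02% of all genes did, and 9 of the 10 that rose belong to the endoplasmic reticulum (ER).

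**Figure D3:**
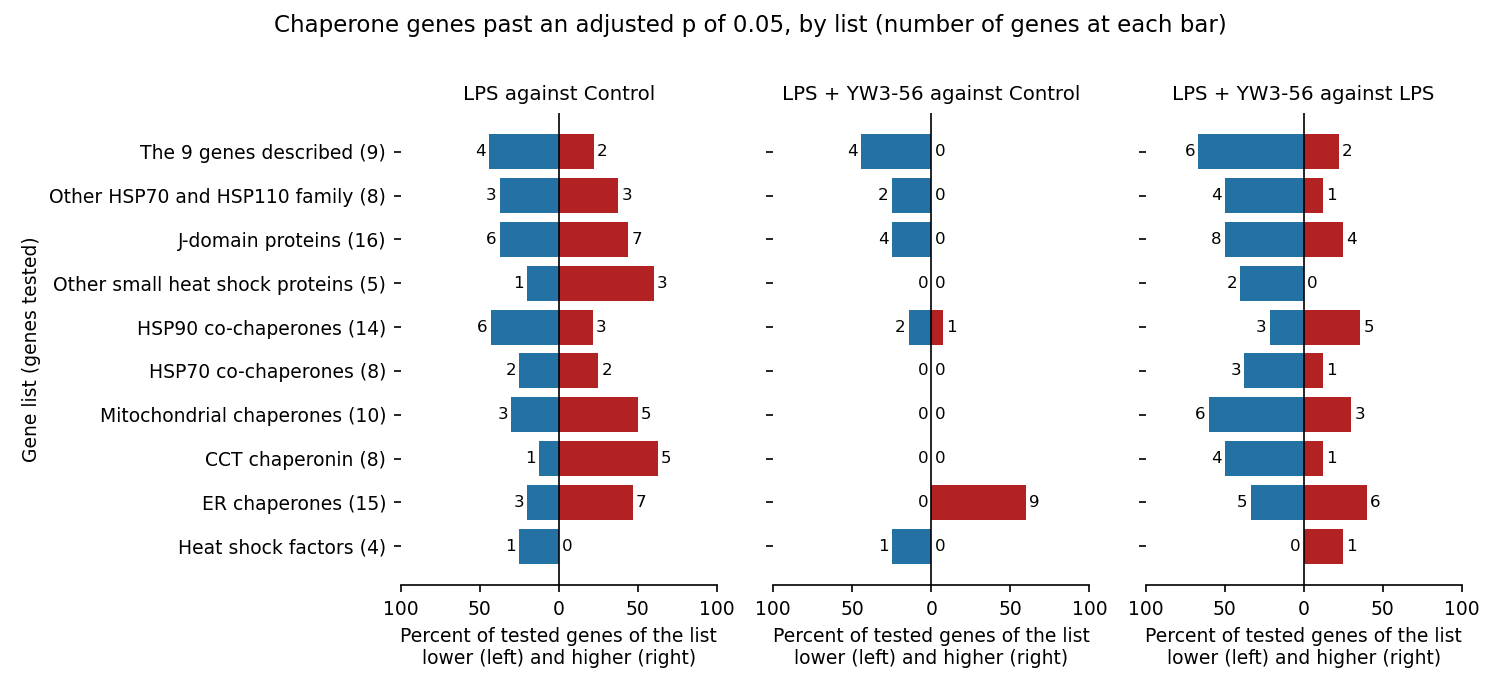
Percent of the tested genes of each list (horizontal axes) that were higher (right, red) or lower (left, blue) at an adjusted p-value under 0.05 with TMM scaling, with the number of genes at each bar. In LPS + YW3-56 against Control, 9 of 15 ER chaperone genes were higher and 0 lower, with 10 and 0 when scaled by library size only, while 35 up and 26 down over all 9 other lists with LPS became 29 and 36.

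Among 8 other genes of the HSP70 and HSP110 families, 3 rose and 3 fell with LPS (1 and 3 with scaling by library size only, 2 and 2 without LPS mice 6 and 7). *Hspa12b*, a distant HSP70 of endothelial cells, was 85.9, 96.4 and 91.0 CPM in the control mice, 12.4, 18.9 and 17.3 CPM in the LPS mice and 82.5 and 130 CPM in the dual-treated mice. Like *Hspa1a* and *Hspa1b* it was low in every LPS mouse, but its dual-treated mice lay on either side of the control range. It fell with LPS (log2FC = -2.49, SE 0.196, adjusted p = 5.26e-06 by the edgeR test), and dual-treated mice had more of it than LPS mice (log2FC = 2.71). *Hspa13*, an HSP70 of microsomes, rose with LPS (log2FC = 0.78). Of the 8 genes 1 rose and 4 fell in dual-treated against LPS mice (1 and 0 by library size only, 1 and 4 without mice 6 and 7).

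Of 16 other J-domain proteins of cytosol and nucleus, 7 rose and 6 fell with LPS (6 and 8 by library size only, 7 and 6 without LPS mice 6 and 7). Between dual-treated and LPS mice 4 rose and 8 fell (6 and 5 by library size only, 4 and 8 without mice 6 and 7). *Dnajb4*, a close relative of *Dnajb1*, was 59.0, 53.3 and 57.2 CPM in the control mice, 198, 139 and 129 CPM in the LPS mice and 41.8 and 40.4 CPM in the dual-treated mice. It rose with LPS (log2FC = 1.46) and fell in dual-treated against LPS mice (log2FC = -1.91), and its highest level was again in LPS mouse 1. *Dnajb2* went the other way, with a log2FC of -1.71 with LPS and 1.25 in dual-treated against LPS mice. *Dnajc7* fell with LPS (log2FC = -1.22), and *Dnajb6* fell in dual-treated against LPS mice (log2FC = -1.23). *Dnaja1*, an HSP40 partner of HSC70, was lower in every treated mouse (109 to 120 CPM) than in the control mice (203 to 234 CPM), and its log2FC in dual-treated against control mice was -0.92 (SE 0.11, adjusted p = 0.000747 by the edgeR test).

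Of the 5 other small heat shock protein genes tested, 3 rose and 1 fell with LPS (3 and 2 by library size only, 1 and 2 without LPS mice 6 and 7). *Hspb6* and *Hspb7*, both known from muscle, had log2FC of 1.0 and 1.22. Their levels were highest in LPS mice 6 and 7, at 26.7 and 30.2 CPM for *Hspb6* and 49.7 and 61.5 CPM for *Hspb7*. Without these mice the log2FC was 0.47 for *Hspb6* and 0.38 for *Hspb7*, and the part of muscle was not tested. *Cryab*, encoding alpha-B crystallin, fell with LPS (log2FC = -0.92). In dual-treated against LPS mice 0 rose and 2 fell by the edgeR test (0 and 2 at an unadjusted p-value under 0.05, 0 and 3 with DESeq2, 0 and 2 without mice 6 and 7), but 2 rose and 2 fell by library size only. *Hspb8*, the partner of BAG3, was among those that fell (log2FC = -0.60).

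HSP90 works with co-chaperones, of which 3 of 14 rose and 6 fell with LPS (3 and 9 by library size only, 3 and 5 without LPS mice 6 and 7). The immunophilins *Fkbp4* and *Fkbp5*, which compete for steroid receptor complexes, moved in opposite directions. *Fkbp4* was 245, 268 and 311 CPM in the control mice, 70.9, 67.7 and 67.5 CPM in the LPS mice and 104 and 168 CPM in the dual-treated mice. It fell with LPS (log2FC = -2.0, SE 0.172, adjusted p = 8.30e-06 by the edgeR test) and stood between the other groups after the dual treatment. *Fkbp5*, a target of the glucocorticoid receptor, rose with LPS (log2FC = 1.79) and in dual-treated against control mice (log2FC = 1.53). *Ahsa2*, related to the HSP90 ATPase activator, fell with LPS (log2FC = -1.61). In dual-treated against LPS mice 5 rose, among them *Chordc1* (log2FC = 0.96), and 3 fell, among them the p23 gene *Ptges3* (log2FC = -0.84). These counts were 8 and 2 by library size only, and 4 and 3 without mice 6 and 7. Against control mice the dual treatment had 1 gene up, *Fkbp5*, and 2 down.

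Of 8 further HSP70 co-chaperones, 2 rose and 2 fell with LPS, and also by library size only and without LPS mice 6 and 7. *Bag2*, from the family of *Bag3*, had the same directions as *Bag3*, with a log2FC of 1.13 with LPS and -1.37 in dual-treated against LPS mice. Between dual-treated and LPS mice 1 of the 8 rose and 3 fell (2 and 1 by library size only, 1 and 4 without mice 6 and 7). *St13*, encoding the HSP70-interacting protein Hip, fell with LPS (log2FC = -0.48). The ubiquitin ligase gene *Stub1* rose in dual-treated against LPS mice (log2FC = 0.49).

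Counts for chaperones of other compartments stand beside 32.6% of all genes up and 33.9% down with LPS. In dual-treated against LPS mice these shares were 31.7% and 27.4%. Whether the lists differ from all genes was not tested. Of 10 mitochondrial chaperones 5 rose with LPS and 3 fell (4 and 3 by library size only, 5 and 3 without LPS mice 6 and 7). From LPS to dual-treated mice 3 rose and 6 fell (3 and 4 by library size only, 3 and 5 without mice 6 and 7). *Hspa9*, the mitochondrial HSP70, was 140, 151 and 137 CPM in the control mice, 330, 297 and 291 CPM in the LPS mice and 169 and 144 CPM in the dual-treated mice. It rose with LPS (log2FC = 1.10) and was lower in dual-treated than in LPS mice (log2FC = -0.97). *Clpx* of the mitochondrial protease ClpXP had the same directions (log2FC = 1.22 and -1.34), while the J-domain partner *Dnaja3* had the reverse (log2FC = -1.20 and 1.26). Of the 8 subunits of the cytosolic chaperonin CCT, which folds actin and tubulin, 5 rose with LPS and 1 fell (5 and 2 by library size only, 6 and 1 without LPS mice 6 and 7). *Cct2* rose most (log2FC = 0.94), followed by *Cct6a* (0.85) and *Tcp1* (0.67). Between dual-treated and LPS mice 1 subunit rose and 4 fell (3 and 1 by library size only, 1 and 5 without mice 6 and 7).

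Chaperones of the ER were the list with most upregulated genes in dual-treated against control mice. Of 15 genes 9 rose and 0 fell by the edgeR test (10 and 1 at an unadjusted p-value under 0.05, 10 and 1 with DESeq2, 10 and 0 by library size only), with a median log2FC of 0.46, where 9.13% and 7.02% of all genes did. *Sdf2l1*, a co-factor of the ER HSP70, was 11, 10.5 and 14.2 CPM in the control mice, 9.66, 15.1 and 13.4 CPM in the LPS mice and 48.8 and 34.9 CPM in the dual-treated mice. Control and LPS mice overlapped, and both dual-treated mice were far above them. It rose in dual-treated against control mice (log2FC = 1.81, SE 0.22, adjusted p = 0.000805 by the edgeR test) and against LPS mice (log2FC = 1.72). Calreticulin (*Calr*) rose against control mice (log2FC = 0.91). In dual-treated against control mice 7 of 10 macrophage markers also rose and 1 fell (median log2FC 1.74). Of 12 neutrophil markers 7 rose and 0 fell there (median 2.68). The part of these cell types in the ER counts was not tested. With LPS 7 of the 15 rose, among them *Hspa5*, the ER HSP70 known as BiP (log2FC = 1.38), and *Manf* (log2FC = 1.47), and 3 fell, among them the collagen chaperone *Serpinh1* (log2FC = -1.26). By library size only 5 rose and 4 fell with LPS, and without LPS mice 6 and 7 it was 7 and 2. From LPS to dual-treated mice 6 rose and 5 fell, but 9 and 3 by library size only and 3 and 4 without mice 6 and 7, so the balance in this comparison depends on scaling and on these mice.

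For the remaining lists, counts in dual-treated against control mice stand beside 9.13% of all genes up and 7.02% down. By the edgeR test 0 rose among the HSP70 and HSP110 family, J-domain, small heat shock protein, HSP70 co-chaperone, mitochondrial and CCT lists. At an unadjusted p-value under 0.05 the number that rose was 1 in the HSP70 and HSP110 family, 3 in CCT and 0 in the other 4 of these lists, and with DESeq2 it was 0 in all 6. The number that fell was 2 of 8 in the HSP70 and HSP110 family and 4 of 16 among J-domain proteins (1 and 2 by library size only). It was 0 in the small heat shock protein, HSP70 co-chaperone, mitochondrial and CCT lists, where an unadjusted p-value under 0.05 gave 1, 2, 0 and 0 and DESeq2 gave 1, 2, 0 and 0.

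Of 4 heat shock factors and regulators, 0 rose and 1 fell by the edgeR test with LPS and likewise in dual-treated against control mice (0 and 1 in both at an unadjusted p-value under 0.05 and with DESeq2). The gene that fell was *Hsf4*. By library size only 3 fell with LPS, and without LPS mice 6 and 7 it was 1. In dual-treated against LPS mice 1 rose and 0 fell (1 and 0 at an unadjusted p-value under 0.05, with DESeq2 and by library size only, and 1 and 1 without mice 6 and 7). *Hsf1*, the main activator of the inducible genes, was 58.8, 62.1 and 64.2 CPM in the control mice, 69.9, 51.4 and 57.1 CPM in the LPS mice and 47.5 and 53.4 CPM in the dual-treated mice. The LPS mice overlapped both other groups, and both dual-treated mice lay below the control mice. Its log2FC was -0.05 with LPS, -0.29 in dual-treated against control mice and -0.24 in dual-treated against LPS mice, and none passed the edgeR test. The last did without LPS mouse 6 (-0.34) and without mice 6 and 7 (-0.48), and that with LPS did with scaling by library size only (-0.35). *Hsf2* had log2FC of 0.22, -0.02 and -0.25 in the same order, and none passed. *Hsf4*, known from the lens, went down with LPS (log2FC = -1.91, SE 0.174, adjusted p = 1.17e-05 by the edgeR test) from 22.5, 24.9 and 26.9 CPM in the control mice to 7.53, 5.77 and 6.41 CPM in the LPS mice.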

How the data were processed

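The authors checked reads with FastQC 0.11.9, trimmed them with Trim Galore, aligned them to GRCm39 with HISAT2 2.2.1 and counted them with featureCounts 2.0.1, per the labels. The deposited values are raw counts per gene for each mouse. Annotation release, strand setting and treatment of multi-mapping reads are not given. Identifiers were matched to GENCODE M39 (54749 of 55416). Counts were scaled to TMM CPM and tested in R 4.3.3 with edgeR 4.0.16 (filterByExpr by group, 1 group factor, 5 residual degrees of freedom). SEs were derived from log2FC and its F statistic. TPM used exon-union lengths. Of each chaperone list, the up to 3 called genes with the largest absolute log2FC per comparison and a mean of at least 1 CPM were eligible to be named. Those named were chosen after their values were seen, from calls that held without each mouse in turn. *Hsf1* and *Hsf2* were always named. Alternatives were DESeq2 1.42.0, RLE factors, library size only, other filters, the fold criterion, only the compared groups, summing *Hspa1a* and *Hspa1b*, and leaving out mice. The members and lists were chosen with earlier results of these data known.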

Additional observations from a re-analysis of the deposited data

How the results depend on the processing

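*Hspa1a*, *Hspa1b*, *Hspb1* and *Bag3* kept their calls with LPS and between dual-treated and LPS mice under every alternative run. With the fold criterion, downregulated members numbered 2 with LPS, 1 in dual-treated against control and 3 in dual-treated against LPS mice. That criterion adds a fold change over 2 but uses the unadjusted p-value, so 2 choices changed at once. Summing *Hspa1a* and *Hspa1b* left 1 upregulated gene in dual-treated against LPS mice, since 1 gene stands for both. With library size only, 3 were downregulated there. Leaving out each mouse in turn gave 2 to 3 up and 4 to 5 down with LPS, 0 up and 2 to 4 down in dual-treated against control, and 2 up and 4 to 6 down in dual-treated against LPS mice, lowest without dual-treated mouse 2. Signs turned, none past the threshold, with library size only for *Dnajb1* with LPS (-0.057), *Hsf1* in dual-treated against LPS mice (0.095) and *Hsf2* in the LPS (-0.060), dual-treated against control (0.019) and dual-treated against LPS (0.079) comparisons. They turned without LPS mice 6 and 7 for *Hspa8* in dual-treated against LPS mice (-0.061), *Hsp90aa1* with LPS (0.0089) and *Hsf1* with LPS (0.19). Over the mice left out in turn, *Hspa1b* in dual-treated against control mice ran from -0.33 to 0.043 (without control mouse 4), *Hsf1* with LPS from -0.18 to 0.049 (without LPS mouse 6), and *Hsf2* in dual-treated against control mice from -0.17 to 0.079 (without control mouse 2, and 0.065 without dual-treated mouse 5). The cause was not tested. Among the single-gene values of the 9 genes under the alternatives, 322 kept direction and side of the threshold, 10 newly passed it and 9 no longer did. For the other named genes these were 832, 3 and 41. No paired analysis was possible because the groups held different mice. A mouse number that occurs in more than 1 group does not mark the same animal. Groups of 2 or 3 mice, and 47 to 69 counts of *Hspa1a* in LPS libraries, limit the precision. The 2 dual-treated libraries were the least alike pair within a group, with a mean chi-square per gene of 43.4. Pairs of LPS libraries had 26.1 to 41.9, and pairs of control libraries 8.43 to 12.8.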

Other observations

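Genes outside the chaperone lists shared the profile of the inducible HSP70 pair. Likeness was measured by Pearson's r of log2 CPM over the 8 libraries, among 10380 genes with a mean of at least 10 CPM, and is a description without a test, in which the group differences weigh most. Closest to the sum of *Hspa1a* and *Hspa1b* were 9430015G10Rik (r = 0.998), *Pomt2* (0.997), *Alg14* (0.996), *Ppox* (0.995) and *Usp40* (0.995). All had their lowest group mean in the LPS mice, which follows from choosing them by likeness to the pair. The size of a change does not enter r: *Pomt2* had means of 24.3, 11.6 and 22.8 CPM in control, LPS and dual-treated mice. *Alg14*, which takes part in building N-glycans, had means of 17.7, 4.89 and 15.2 CPM in control, LPS and dual-treated mice. *Usp40*, a deubiquitinase, had means of 28.3, 6.97 and 27.4 CPM. *Ppox*, of heme synthesis, had means of 48.5, 19.2 and 46.8 CPM.

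The profile of *Hspa8*, highest in control mice and lower in both treated groups, was closest to that of *Thbs3* (r = 0.989), *Ltbp3* (0.977), *Dlg4* (0.972), *Pitpnm2* (0.967) and *Adk* (0.965). *Thbs3*, a thrombospondin of the extracellular matrix, had means of 90.8, 43.2 and 51.8 CPM in control, LPS and dual-treated mice. *Ltbp3*, which binds latent TGF-beta, had means of 234, 140 and 150 CPM in these groups.

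The 9 chaperone genes together held 3287, 3545 and 3992 CPM in the control mice, 3756, 3166 and 3027 CPM in the LPS mice and 2348 and 2564 CPM in the dual-treated mice. Control and LPS mice overlapped, and both dual-treated mice lay below all others. Of the raw counts this was 0.353%, 0.382% and 0.423% in the control mice, 0.304%, 0.283% and 0.282% in the LPS mice and 0.261% and 0.280% in the dual-treated mice, where both treated groups lay below the control mice. The sum with LPS thus depends on the scaling.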
